A study of Mus musculus with 12 samples.

Results

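The regions described here are stretches of the mouse genome that carried an H3K79me2 peak in both libraries made after Cre and in neither control library. They were chosen by the H3K79me2 peak calls of 4 libraries. Every stretch covered in both Cre lists was taken on the 19 autosomes, and those with no base in either control list were kept. This gave 9007 Cre-only stretches out of 60700 stretches shared by the Cre lists (14.8%), in a series whose 8 peak lists hold 933917 peaks. The 9007 stretches spanned 1486 kb, or 5.19% of the 28.6 Mb that the Cre lists share. All positions are in mm9, and no gene is assigned to a stretch because the gene table used here is of another build, GRCm38.p6.

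The series profiled mouse embryonic fibroblasts on day 4 of reprogramming towards pluripotency. Control cells had the genotype AF10 fl/fl, OSKM, rtTA and received the adenovirus Ad5-CMV-Empty. Cre cells received Ad5-CMV-Cre and are labelled AF10 -/-, OSKM, rtTA. Both groups carried the OSKM set of reprogramming factors (OCT4, SOX2, KLF4 and MYC), were given doxycycline at 2 µg/mL from 2 days after the virus, and grew on DR4 feeder fibroblasts. The Cre gene was driven by the CMV promoter in any infected cell, the share of cells that lost AF10 was not measured in these files, and the files hold no measure of chromatin from the feeder cells. Each of H3K79me1 and H3K79me2 had 2 control and 2 Cre libraries, which were all analysed, while 4 further libraries, of RNA polymerase II, were not analysed here.

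AF10, also called Mllt10, is a partner of DOT1L, the enzyme that adds methyl groups to lysine 79 of histone H3. DOT1L works stepwise, so that H3K79me1 precedes H3K79me2, and AF10 is known for favouring the higher methylated forms. Both marks lie over transcribed gene bodies, with H3K79me2 strongest towards the 5′ end, and a broad domain is often listed by a peak caller as a row of shorter peaks with gaps between them.

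The 4 H3K79me2 lists that define the stretches were unequal. On the autosomes the controls held 89615 and 187210 peaks over 15.7 and 69.9 Mb, with median widths of 90 and 197 bp in replicates 1 and 2. The Cre lists held 75276 and 120630 peaks over 47.5 and 49.2 Mb, with median widths of 351 and 231 bp. The H3K79me1 lists covered 117.8 and 53.4 Mb in the controls and 59.5 and 1.85 Mb after Cre, so H3K79me1 Cre replicate 2 stands apart from the rest. The lists carry no read counts, and library depth is therefore unknown. Nothing in the labels says that replicates were separate cultures, and a p-value here measures the spread between libraries, which may be technical.

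Control replicate 2 set the size of the Cre-only set far more than control replicate 1. Of the 60700 shared Cre stretches, 25712 touched a peak of both controls, 25018 touched control replicate 2 only and 963 touched control replicate 1 only. Without control replicate 2 the rule would keep 34025 stretches, and without control replicate 1 it would keep 9970. Taking the stretches of a single Cre list gave 19093 without Cre replicate 2 and 40499 without Cre replicate 1. With just the peaks of −log10 p at least 2 in all 4 lists, the rule kept 147 stretches, fewer than under any of the other settings named here.

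Cre-only stretches were short. Their median width was 144 bp, with the middle 50% between 92 and 212 bp, and the widest was 1038 bp. Of the 9007, 1111 were under 50 bp, 144 were 500 bp or more and 1 was over 1 kb. The 51693 shared Cre stretches that touched a control list had a median width of 310 bp, and 6253 of them exceeded 1 kb, up to 22911 bp. A wide stretch has more bases that could touch a control peak, so the rule itself favours short ones, and the 2 medians are given as a description.

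**Figure D1:**
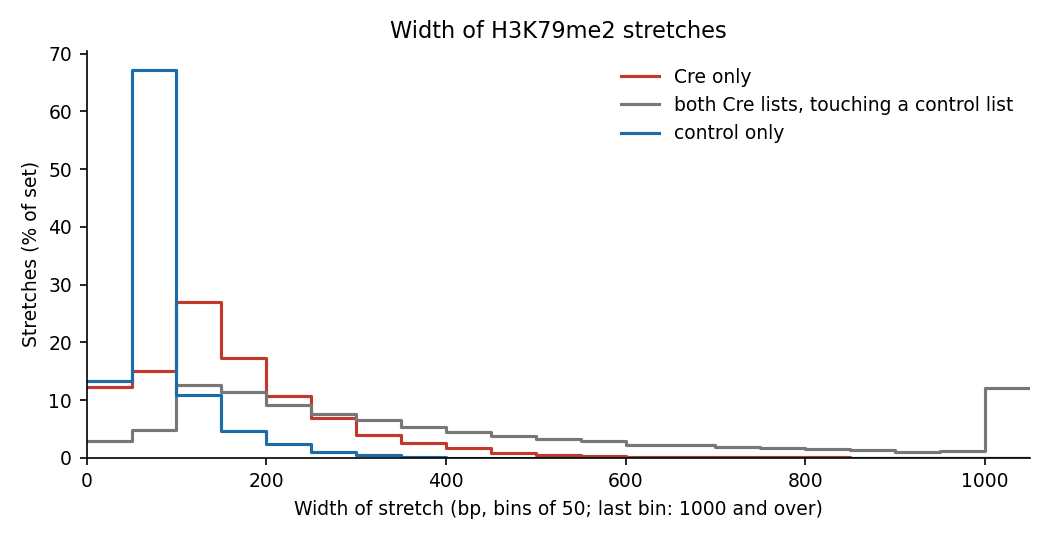
Width of H3K79me2 stretches (x axis, bp, in bins of 50) against the percentage of each set (y axis), for Cre-only stretches (red, n = 9007), stretches of both Cre lists that touch a control list (grey, n = 51693) and control-only stretches (blue, n = 12512). Cre-only stretches centre on a median of 144 bp and nearly vanish beyond 500 bp, control-only stretches pile up between 50 and 100 bp, and the grey set has a tail of stretches of 1000 bp and over, pooled in the last bin.

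The same rule with the groups exchanged gave the control-only stretches, which serve as a mirror. There were 12512 of them out of 63168 stretches shared by the controls (19.8%), with a median width of 54 bp and a total of 944.8 kb. Cre-only stretches were thus fewer but longer in sum, with a log2 ratio of -0.47 in number. That order turned when stretches under 100 bp were left out, which left 6541 Cre-only and 2447 control-only stretches (log2 ratio 1.42). It also turned with equal numbers of peaks per list (log2 ratio 0.39) and without control replicate 2 (0.059) or Cre replicate 1 (1.27). Control replicate 1 had peaks down to 51 bp, against 147 and 126 bp for the shortest peaks of the Cre lists, and its part in the excess of short control-only stretches was not tested.

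Most Cre-only stretches lay beside H3K79me2 that was already called in a control. The median distance to the nearest control H3K79me2 peak was 254 bp, with the middle 50% between 105 and 576 bp. Of the 9007, 3786 (42.0%) lay under 200 bp from a control peak and 4010 (44.5%) at 200 bp to 1 kb, which together makes 7796 within 1 kb (86.6%). A further 1056 (11.7%) lay at 1 to 5 kb, and 155 (1.72%) were isolated, at 5 kb or more. Of all autosomal bases outside control H3K79me2 peaks, 12.1% lay within 1 kb of one and 61.2% at 5 kb or more. The stretches were therefore close to control peaks far more often than the uncalled genome as a whole.

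The distances depended on the lists used. The share within 1 kb was 61.2% among the 147 stretches found with −log10 p of at least 2, and with equal peak numbers it was 63.6%. It was 54.4% without control replicate 2, 43.7% without Cre replicate 1 and 70.3% without Cre replicate 2. In each of these settings it exceeded the 12.1% of uncalled bases in the lists as deposited.

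Control-only stretches were placed differently in the same lists. Their median distance to the nearest Cre H3K79me2 peak was 3752 bp, with 4662 of 12512 (37.3%) within 1 kb and 5863 (46.9%) at 5 kb or more. Of the autosomal bases outside Cre peaks, 6.87% lay within 1 kb of one and 78.8% at 5 kb or more. Both kinds of stretch were thus nearer to the other group's peaks than the uncalled genome was, and Cre-only stretches more so. No test applies to this difference, since the lists that define the stretches also give the distances.

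**Figure D2:**
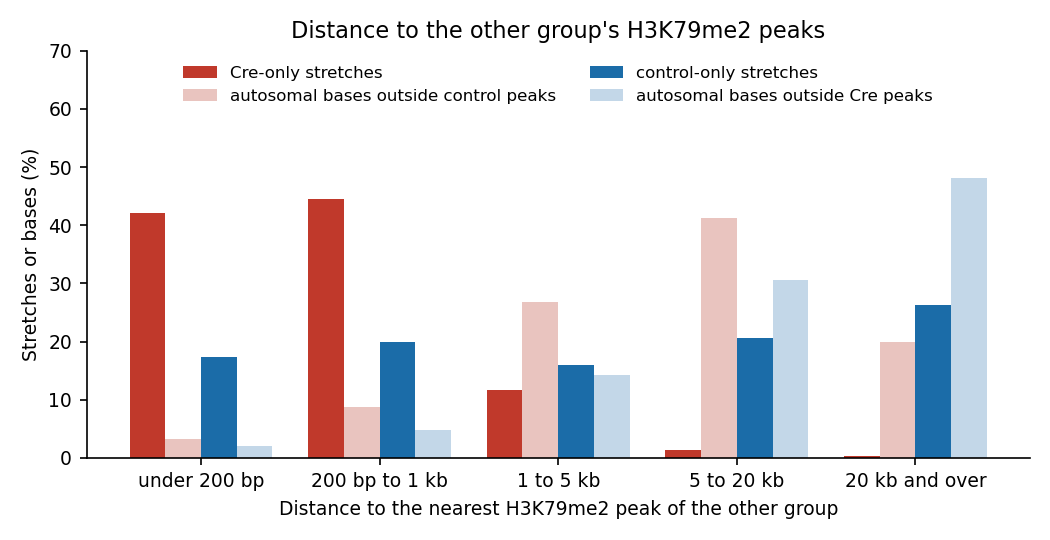
Distance to the nearest H3K79me2 peak of the other group (x axis, 5 classes) against the percentage of stretches or bases (y axis): Cre-only stretches (dark red) with all autosomal bases outside control peaks (light red), and control-only stretches (dark blue) with all autosomal bases outside Cre peaks (light blue). Cre-only stretches fall mainly into the 2 nearest classes, with 42.0% and 44.5%, while 26.3% of control-only stretches lie at 20 kb and over.

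The nearest control peak usually came from control replicate 2. It was in that list for 8013 stretches (89.0%) and in control replicate 1 for 988 (10.97%). Measured to control replicate 2 alone the median distance was 278 bp, and 7657 stretches (85.0%) lay within 1 kb. Measured to control replicate 1 alone the median was 1456 bp, with 3540 (39.3%) within 1 kb and 1738 (19.3%) at 5 kb or more. The sparser list thus lay farther away, but most of the stretches had one of its peaks within 5 kb as well.

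The stretches mostly lay between control H3K79me2 peaks. For 7741 of them (85.9%) control peaks stood within 5 kb on both sides, for 1111 (12.3%) on 1 side, and for 155 (1.72%) on neither. Within 1 kb the figures were 4572 (50.8%) on both sides, 3224 (35.8%) on 1 side and 1211 (13.4%) on neither. Among control-only stretches, Cre peaks stood within 5 kb on both sides of 4511 (36.1%). The gaps between neighbouring control peaks numbered 213587 with a median of 2232 bp, and 8383 of them (3.92%) held a Cre-only stretch. Those 8383 gaps had a median of 1404 bp and were filled to a median of 10.2%, and 7807 of them (93.1%) held just 1 stretch. A typical Cre-only stretch was thus a small piece of a gap between control peaks.

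The stretches also differed in whether the Cre peaks that held them ran on into a control peak. Both Cre peaks that held the stretch also reached into a control peak elsewhere for 724 stretches (8.04%). For 3591 (39.9%) only 1 of the 2 did, which was the peak of Cre replicate 1 in 2279 and that of Cre replicate 2 in 1312. For 4692 (52.1%) neither Cre peak touched a control peak. These 4692 free stretches had a median width of 147 bp and a median distance of 534 bp, and 74.3% of them lay within 1 kb of a control peak. The 724 stretches joined to control peaks in both lists were narrower, with a median width of 79 bp, and lay at a median of 75.5 bp from control cover.

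By the authors' deposited values, the Cre peaks that held the stretches were typical of their list or weaker. Median fold enrichment was 1.79 for those of Cre replicate 1, where the list's other peaks had 1.84, and 1.75 for those of Cre replicate 2, where the others had 1.82. Their median −log10 p was 1.37 and 1.49, against 1.37 and 1.495 for the others. Ranked by p within the list, their median stood at the percentile 49.8 in Cre replicate 1 and 36.5 in Cre replicate 2. In Cre replicate 1, 122 of the 8803 peaks with a stretch had a −log10 q above 0 (1.39%), against 6.13% of the list's other peaks. In Cre replicate 2 it was 32 of 8887 (0.360%), against 3.59%. The highest −log10 p among them was 4.32 and 2.86, while the lists themselves reached 6.48 and 21.99. In both lists, peaks with a −log10 q above 0 were thus scarcer among those that held a Cre-only stretch. The rule used these same lists, so this is given as a description. A control peak was touched by 33.1% and 22.5% of the peaks with a stretch in Cre replicates 1 and 2, against 80.1% and 69.9% of the others.

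Stretches just inside the rule were wider than those just outside it, and H3K79me1 cover was a little higher inside in each library. Within 10 bp of a control peak lay 343 Cre-only stretches, of which 31 abutted it, with a median width of 148 bp. A further 585 shared Cre stretches had 1 to 10 bp in a control peak and so were not kept, with a median width of 75 bp. These 585 can include stretches of at most 10 bp that lie wholly in a control peak, so both widths are given as a description. H3K79me1 cover of the 585 was 78.7% and 37.5% in control replicates 1 and 2, against 63.5% and 0.352% in Cre replicates 1 and 2. Just inside the rule it was 84.8% and 41.5%, and 69.0% and 1.10%.

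H3K79me1, which the rule did not use, was already called over most Cre-only bases in the control with the widest list. It covered 79.7% of their bases in control replicate 1 and 31.1% in control replicate 2, and 62.8% in Cre replicate 1 and 0.741% in Cre replicate 2. Both control values were above the Cre value of the same replicate number, but Cre replicate 1 lay above control replicate 2, so the groups overlapped. On average this came to 55.4 ± 34.3% for the controls and 31.8 ± 43.9% for Cre (SD, n = 2), a difference of -23.6 percentage points. With 6 arrangements of the libraries, a two-sided exact permutation test returned p = 0.667, where 0.33 is the lowest value possible. The difference between the groups was therefore smaller than the spread within them.

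That difference rested on H3K79me1 control replicate 1 and Cre replicate 2. Without control replicate 1 it was 0.677 percentage points, and without Cre replicate 2 it was 7.43. Within the same replicate number, the Cre value differed from the control by -16.9 points in replicate 1 and by -30.4 in replicate 2. The order control above Cre held for both numbers on all 19 autosomes, which share the same 4 libraries. Whole-library cover moved the same way, at 4.76% and 2.16% of autosomal bases in the controls, against 2.41% and 0.0748% after Cre, and its part in the difference was not tested. Relative to that whole-library cover, H3K79me1 was 16.7-fold and 14.4-fold enriched over Cre-only bases in the controls and 26.1-fold and 9.90-fold after Cre. On this scale the log2 difference was 0.050, near 0, with Cre replicate 1 above both controls and Cre replicate 2 below both. Relative to the cover of shared Cre stretches that touch a control list, it was -1.22. With only H3K79me1 peaks of −log10 p at least 2, the difference was -5.19 points (exact permutation, two-sided, p = 0.33).

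**Figure D3:**
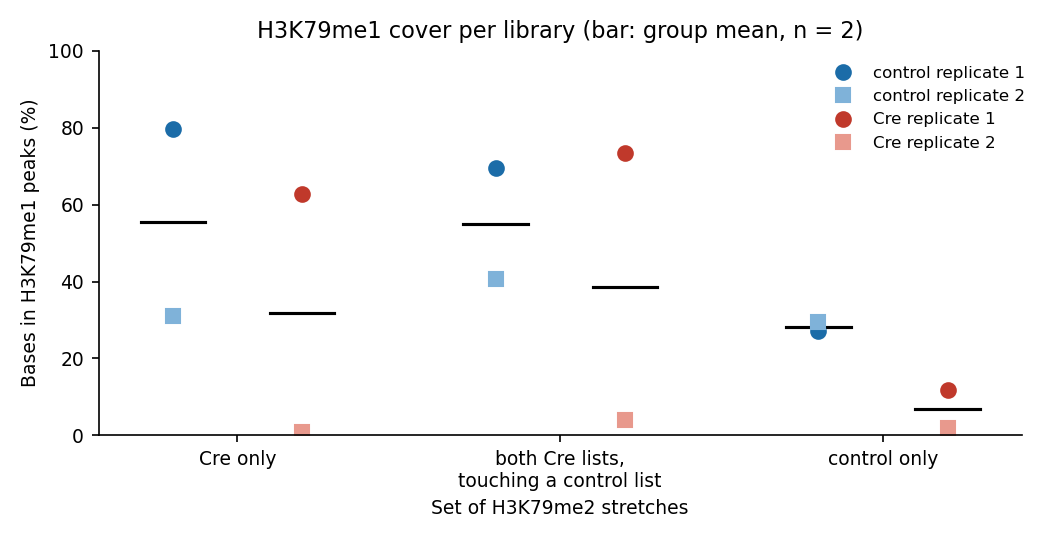
Percentage of bases in H3K79me1 peaks (y axis) for 3 sets of H3K79me2 stretches (x axis) in each library, with circles for replicate 1, squares for replicate 2, blue for control, red for Cre and a black bar at the mean of 2 libraries. Over Cre-only stretches the 4 values run from 0.741% to 79.7% and the groups overlap, while over control-only stretches both controls (27.0% and 29.4%) stand above both Cre libraries (11.8% and 2.03%).

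Compared with shared Cre stretches that touch a control list, Cre-only stretches had more H3K79me1 in 1 library and less in 3. Touching stretches were covered to 69.4% and 40.6% in control replicates 1 and 2, against 73.4% and 3.90% in Cre replicates 1 and 2. The Cre-only value was 10.2 points higher in control replicate 1, and differed by -9.49 points in control replicate 2, -10.5 in Cre replicate 1 and -3.16 in Cre replicate 2. In replicate 1, touching stretches had 3.91 points more H3K79me1 in Cre than in control, where Cre-only stretches differed by -16.9. The gap between the sets averaged 0.373 ± 13.9 points in control and -6.84 ± 5.21 after Cre (SD, n = 2). Its change of -7.22 points was smaller in size than the SD in control but larger than that after Cre. A two-sided exact permutation test of this change gave p = 0.667, and the change became 2.65 without H3K79me1 control replicate 1.

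Control-only stretches carried less H3K79me1 than Cre-only ones in both replicate 1 libraries. They were covered to 27.0% and 29.4% in the controls, against 11.8% and 2.03% after Cre. Cre-only cover was higher by 52.7 points in control replicate 1, by 1.74 in control replicate 2 and by 51.1 in Cre replicate 1, and differed by -1.29 points in Cre replicate 2. The change of this gap with Cre was -2.30 points (exact permutation, two-sided, p = 0.667), and it turned to 23.2 without H3K79me1 control replicate 1 and to 23.9 without Cre replicate 2. The gap itself was thus large in both replicate 1 libraries and near 0 in both replicate 2 libraries, in either group. The H3K79me1 lists covered 53.4 Mb in control replicate 2 and 59.5 Mb in Cre replicate 1, and the part of list cover in the gap was not tested. Peak names carry the tag A in replicate 1 of both marks, including the H3K79me2 lists that define the stretches. In replicate 2 the tag is 19 for H3K79me1 and B for H3K79me2. The part of what these tags mark was not tested either.

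Counted stretch by stretch, most Cre-only stretches had H3K79me1 in a control library. A base of H3K79me1 lay in a control and a Cre library at 5790 stretches (64.3%), in a control library only at 2182 (24.2%), in a Cre library only at 461 (5.12%) and in no library at 574 (6.37%). Among shared Cre stretches that touch a control list, the shares in the same order were 78.3%, 13.9%, 4.26% and 3.47%. Touching stretches thus had H3K79me1 in a control and a Cre library more often, and each other pattern less often. Both controls listed H3K79me1 at 3489 Cre-only stretches (38.7%) and both Cre libraries at 93 (1.03%), where touching stretches, which are wider, had 63.2% and 11.1%. Cover in both Cre libraries was below both controls at 1358 stretches (15.1%), against 18.1% of all 60700 shared Cre stretches. It was above both controls at 9 stretches (0.0999%), against 0.568% of all shared Cre stretches. Neither of these last shares was higher than its background. To be above both controls, a stretch needs H3K79me1 in Cre replicate 2. That library listed it at 1.44% of Cre-only stretches and at 10.8% of all shared Cre stretches.

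H3K79me1 cover was lower at stretches farther from control H3K79me2, up to 20 kb, except in Cre replicate 2. From the class under 200 bp to that of 5 to 20 kb control replicate 1 went from 81.9% to 54.1%, control replicate 2 from 34.8% to 15.6% and Cre replicate 1 from 66.0% to 45.0%. The values of Cre replicate 2 were 0.808% and 3.02%. Where control peaks stood within 5 kb on both sides, cover was 82.4% and 32.9% in the controls, against 64.2% and 0.678% after Cre. Where they stood on 1 side, it was 65.9% and 21.3%, and 55.7% and 0.743%. Stretches between control peaks thus carried more H3K79me1 in 3 of the 4 libraries than stretches with control peaks on 1 side.

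In the controls, H3K79me1 cover varied little with width. Stretches under 50 bp and those of 300 bp and over were covered to 77.3% and 80.7% in the list of control replicate 1, while control replicate 2 gave 30.4% and 30.0%. In Cre replicate 1 cover went from 54.0% to 69.9% between these classes. Distance to control peaks was about the same in both, with medians of 230 and 243 bp.

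Around the stretches, H3K79me2 cover was similar in control replicate 2 and the Cre libraries. At 1 kb to the right of the centre, control replicate 2 covered 28.8% of the stretches' surroundings, Cre replicates 1 and 2 covered 25.9% and 22.7%, and control replicate 1 covered 4.84%. At 5 kb the values were 23.9%, 21.9%, 18.9% and 4.60%. At the centre the values are 0% and 100% by the rule. From 400 bp outward on both sides, control replicate 2 was thus at least as densely called as either Cre library at every position measured up to 5 kb.

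H3K79me1 had a local maximum at the centre in 3 libraries. Control replicate 1 covered 79.7% of the centres and 55.5% of the positions 1 kb to the right, control replicate 2 covered 31.5% and 26.8%, and Cre replicate 1 covered 61.2% and 33.3%. Cre replicate 2 covered 0.766% and 0.555%. The mark that the rule did not use was thus raised at the same place in control replicate 1, where H3K79me2 was not called, and in Cre replicate 1.

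**Figure D4:**
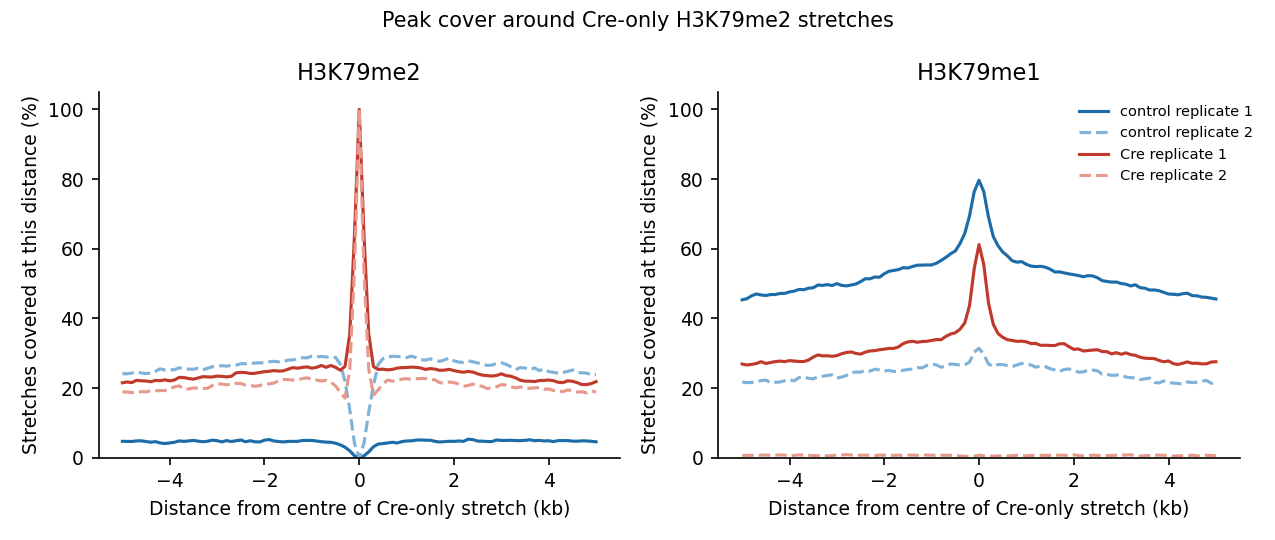
Percentage of the 9007 Cre-only stretches covered by a peak (y axis) at each distance from the stretch's centre (x axis, kb), for H3K79me2 (left) and H3K79me1 (right) in control (blue) and Cre (red) libraries, with solid lines for replicate 1 and dashed lines for replicate 2. H3K79me2 is 100% in Cre and 0% in control at the centre by the rule, control replicate 2 is the highest H3K79me2 line from about 1 kb outward, and H3K79me1 peaks at the centre at 79.7%, 31.5% and 61.2% in control replicates 1 and 2 and Cre replicate 1.

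Cre-only stretches occurred on all 19 autosomes at a similar share of the H3K79me2 called there. Their density ran from 2.57 per Mb on chromosome 1 to 5.65 per Mb on chromosome 11. As a share of the shared Cre stretches of a chromosome they ran only from 13.1% on chromosome 19 to 16.5% on chromosome 15. The median width was between 131.5 bp on chromosome 16 and 157.5 bp on chromosome 14, and the share within 1 kb of a control peak between 83.2% on chromosome 16 and 90.6% on chromosome 13. The number relative to control-only stretches was below 1 on all 19, from a ratio of 0.547 on chromosome 1 to 0.949 on chromosome 15.

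At the scale of 50 kb, the stretches gathered where H3K79me2 was dense, in the control lists and in the Cre lists. They fell into 4734 of 49432 windows (9.58%), with a median of 1 and at most 13 in a window. Mean control H3K79me2 cover had a median of 6.74% in those windows and 0.356% in all windows. Mean Cre H3K79me2 cover had medians of 8.64% and 0.131%, which the rule itself favours, since every stretch lies in peaks of both Cre lists. Shared Cre stretches were not counted per window, so the window values are given as a description. Windows under 2% control cover made up 85.2% of all windows but held 898 stretches (9.97%), or 0.0213 per window. At 10 to 20% control cover there were 1.65 per window, at 20 to 30% there were 1.83, and at 30% and over 1.60. Windows without any control H3K79me2 numbered 18 among those with a stretch. Neighbouring stretches were mostly separate: joined within 1 kb they formed 8292 clusters, with 7656 stretches alone and at most 4 together.

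The window with the most Cre-only bases was chr5:125550001-125600000, with 10 stretches and 3530 bp. H3K79me2 covered 2.14% and 21.0% of it in control replicates 1 and 2, against 32.6% and 28.0% in Cre replicates 1 and 2. H3K79me1 covered 62.8% and 25.6% in the controls, against 54.2% and 0.948% after Cre. The window was thus an H3K79me1-rich domain in control replicate 1. Its H3K79me2 was listed as separate peaks with gaps between them, in the Cre lists as well as in the controls.

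**Figure D5:**
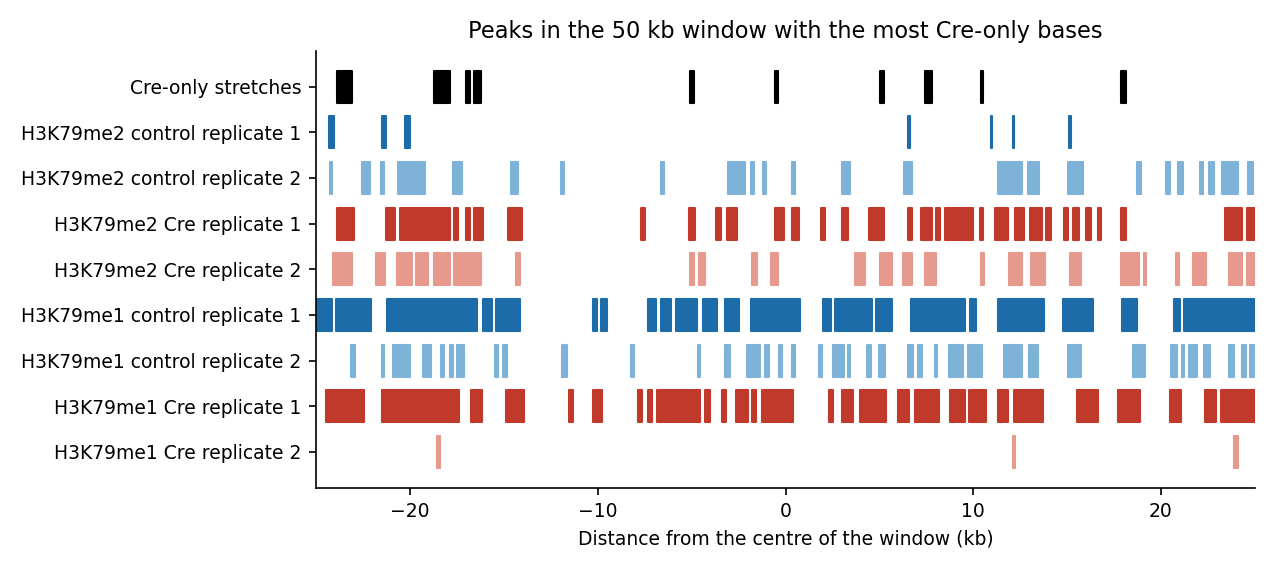
Peaks in the 50 kb window of chromosome 5 with the most Cre-only bases, drawn to scale against the distance from the window's centre (x axis, kb), with a row for the 10 Cre-only stretches (black) and for each of the 8 lists (blue control, red Cre). The Cre-only stretches stand between H3K79me2 peaks of control replicate 2, and H3K79me1 control replicate 1 covers 62.8% of the window.

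The next windows were of the same kind. They were chr8:119850001-119900000 with 11 stretches and 2730 bp, chr2:90350001-90400000 with 9 and 2492 bp, chr17:47400001-47450000 with 13 and 2130 bp and chr6:145700001-145750000 with 10 and 2130 bp. H3K79me2 control replicate 2 covered 30.1%, 32.8%, 26.7% and 25.2% of these 4 windows, and control replicate 1 covered 2.99%, 6.61%, 4.18% and 4.23%. Cre replicate 1 covered 42.0%, 37.8%, 35.7% and 28.6%, and Cre replicate 2 covered 31.5%, 26.8%, 32.6% and 19.3%. Cre replicate 1 was the highest H3K79me2 list in each, while Cre replicate 2 was below control replicate 2 on chromosomes 2 and 6.

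The 5 widest stretches stood close to control peaks. The widest, chr7:133767786-133768823, spanned 1038 bp and began 389 bp from a control peak, with the next one 19870 bp away on its other side. H3K79me1 covered 99.9% and 0% of it in control replicates 1 and 2, against 57.4% and 0% in Cre replicates 1 and 2. The second, chr15:73578713-73579666, spanned 954 bp at 578 bp from control cover, with H3K79me1 at 78.1% in control replicate 1, 76.0% in Cre replicate 1 and 0% in both replicate 2 libraries. Both were whole Cre peaks nearly to their ends, since the peaks that held them measured 1040 and 1085 bp, and 974 and 1027 bp.

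The third, chr6:93823175-93824058, spanned 884 bp and lay 184 bp from a control peak. Its H3K79me1 cover was 100% and 61.9% in the controls, and after Cre it was 34.95% and 0%. The fourth, chr16:14706311-14707172, spanned 862 bp at 982 bp from control replicate 2 but 184867 bp from control replicate 1, with H3K79me1 at 26.3% in control replicate 1 and 23.3% in Cre replicate 1. The fifth, chr7:17606264-17607106, spanned 843 bp at 458 bp from control cover, with H3K79me1 at 100% and 92.2% in the controls, against 100% and 0% after Cre. The authors' fold enrichment of the Cre peaks that held these 5 ran from 1.62 to 1.95, so the widest stretches were not strong ones.

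Isolated stretches were few, and in 3 of the 4 libraries they carried less H3K79me1 than the whole set. The 155 stretches at 5 kb or more from control H3K79me2 spanned 27.0 kb in all, with a median width of 146 bp. H3K79me1 covered 50.8% and 15.7% of their bases in the controls, against 46.3% and 3.67% after Cre. The median fold enrichment of their Cre peaks was 1.74 and 1.76, close to that of the stretches under 200 bp from control cover at 1.81 and 1.76. Just 26 stretches lay at 20 kb or more, with H3K79me1 at 37.0% and 15.8% in the controls, against 51.5% and 6.40% after Cre.

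The most distant stretch, chr1:141626485-141626600, was 116 bp wide and lay 72820 bp from the nearest control peak. A pair on chromosome 12 followed, chr12:112215225-112215549 and chr12:112214056-112214308, at 60264 and 59095 bp. The next was chr14:26801968-26802150, at 52345 bp. The first of the pair and the stretches on chromosomes 1 and 14 had no H3K79me1 in any library, and the other of the pair had it in control replicate 1 alone, at 45.8%.

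The fifth most distant stretch was the exception among these. It was chr6:69466333-69466461, 129 bp wide and 47753 bp from control H3K79me2, with H3K79me1 at 0% and 80.6% in the controls, against 100% and 42.6% after Cre. Its Cre H3K79me2 peaks had fold enrichments of 2.21 and 2.31, the highest of the 5 in both lists. H3K79me1 was listed in both Cre libraries at 10 of the 155 stretches at 5 kb or more from control H3K79me2 (6.45%), against 93 of all 9007 (1.03%). Among shared Cre stretches that touch a control list, which are wider, the share was higher still, at 11.1%.

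Among the 144 stretches of at least 500 bp, mean H3K79me1 cover was lower after Cre than in control at 99, higher at 29 and equal at 16. The median difference among these was -13.4 points. Over all Cre-only stretches, cover was lower at 5724 (63.6%), higher at 943 (10.5%) and equal at 2340, with a median of -20.8 points. The lower cover was thus not particular to the wide stretches. Over the bases of all 60700 shared Cre stretches, mean H3K79me1 cover also differed, by -16.8 points. Counts by stretch were not made for that set, so those above are a description. Each Cre mean includes Cre replicate 2, whose H3K79me1 list covered 1.85 Mb. Of the 29 wide stretches with higher cover, the 5 with the highest H3K79me1 after Cre relative to control were named by the same kind of rule. Those at chr14:20570958-20571782, chr3:87776569-87777113 and chr8:8653522-8654052 had H3K79me1 over 100% of their length in Cre replicate 1 and 0% in the other 3 libraries. The stretch at chr16:78302368-78302922 had 69.7% and 21.8% in Cre replicates 1 and 2 and 0% in both controls, and that at chr11:72861636-72862190 had 91.4% in Cre replicate 1 alone. Cre replicate 2 thus listed H3K79me1 at 1 of the 5. They lay 423, 3454, 808, 50 and 44 bp from control H3K79me2, so none of the 5 was isolated.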

How the data were processed

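H3K79me1 and H3K79me2 ChIP-seq peak lists of 8 libraries were used, grouped by their titles. Per the labels' protocols, human 293T chromatin was added as a spike-in, and no scaling by it is recorded in the lists. Builds mm9 and hg19 are given, without roles, in the submitters' processing notes, as are MACS2, Bowtie2, bedtools, SAMtools 1.2, deepTools and HOMER. The authors called broad peaks in each library against an input, with p settings read from the peak names as 0.001 (H3K79me1) and 1e-04 (H3K79me2). Most peaks of each list have a weaker p-value of their own than that setting, and how the broad regions were scored is not given in the sources used here. Each deposited peak carries the authors' fold enrichment (a ratio), the −log10 of its p-value and of its q-value, and a score. The score was not used, and the other values served only to describe or filter peaks within a list.

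Peaks were intersected base by base, and cover is the share of bases in peaks. Chromosome lengths were taken to the last peak end, 2472 Mb in all. Two-sided exact permutation tests compared the 4 H3K79me1 libraries, and none passed the threshold of 0.05. Named were the 5 widest and the 5 most distant stretches, the 5 windows of 50 kb with most Cre-only bases, and the 5 stretches of at least 500 bp with the highest H3K79me1 difference. The interval code was tested on simulated data. The region set, comparisons and lists were chosen with earlier results of these data known. Alternatives varied peak strength, peak number, overlap, distance, merging, width, chromosomes, scaling and the libraries used, with a replicate block. Computations used SciPy 1.17.1, NumPy 2.4.6 and pandas 2.3.3 under Python 3.11.15, with Matplotlib 3.10.9 for figures. Depth is unknown, so precision was judged from the spread between libraries.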

Additional observations from a re-analysis of the deposited data

How the results depend on the processing

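Number, length, median width, median distance and share at 5 kb or more of the Cre-only stretches moved with most settings. With −log10 p of at least 2 there were 147 stretches of 106.7 kb, with a median of 659 bp at 763 bp, 15.0% at 5 kb or more, 61.2% within 1 kb and a log2 ratio to control-only stretches of -5.87. With equal peak numbers the median was 166 bp at 620 bp, with 7.73% and 63.6%, and the ratio turned to 0.386. Allowing 10% control cover gave 147 bp at 226 bp and 87.5% within 1 kb. Requiring 200 bp from control gave 5221 stretches of 871.3 kb at 493 bp, with 2.97% and 76.8%. Merging within 1 kb gave 3484 of 871.96 kb, with 181 bp at 527.5 bp, 4.39%, 69.5% and a ratio of -1.55. Leaving out stretches under 100 bp gave 174 bp and a ratio of 1.42. With each H3K79me2 library left out, the number ran from 9970 to 40499, the length from 1696 to 8564 kb, the width from 147 to 226 bp and the distance from 270 to 1408 bp. The share at 5 kb or more then ran from 2.00% to 28.4%, that within 1 kb from 43.7% to 85.5% and the log2 ratio from -3.37 to 1.27. The shares within 1 kb and the left-out values of the gaps between sets were added after seeing the data.

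The H3K79me1 difference was negative in 17 of 21 alternatives. It turned to 9.84 points with H3K79me2 peaks of −log10 p at least 2 and to a log2 value of 0.050 when divided by the cover of all autosomes, but was -1.22 in log2 when divided by that of touching stretches. It was -5.19 points with H3K79me1 peaks of −log10 p at least 2. With each library of either mark left out it ran from -54.7 to 7.43 points. The gap to touching stretches ran from -17.1 to 2.65 points and that to control-only stretches from -28.5 to 23.9. With the replicate block the difference was -23.6 points (exact sign-flip test, p = 0.5, the smallest that 2 pairs allow). Deviations of same-numbered libraries correlated at 0.134 over the stretches. The peak names give same-numbered H3K79me1 libraries a common tag (A in replicate 1, 19 in replicate 2). The H3K79me2 lists that define the stretches carry A in replicate 1 as well, but B in replicate 2. What the tags mark is not given in the sources used here, so the numbers were not taken to pair the libraries.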

Other observations

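The regions above are on the autosomes. The X chromosome, where H3K79me1 control replicate 1 listed 0 peaks, held 134 stretches in both H3K79me2 Cre lists and neither control list, and 477 the other way round. The 134 had a median width of 141.5 bp and lay at a median of 341 bp from a control H3K79me2 peak, against 144 and 254 bp on the autosomes.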
